A study of Mus musculus with 24 samples.

Results

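The mRNA levels of genes for cholesterol and fatty acid synthesis were compared between the sexes and between genotypes in the pituitary of Egr1cKO mice and their controls. The genes were taken from a list of 28 enzymes, regulators and carriers of the pathways, and a gene was kept where its mean over all libraries was at least 1 CPM (a gene's count scaled to the total of its library). This kept 27 of the 28, out of 35191 genes in the deposited count table, and all 27 were among the 21927 genes with enough counts to be tested. Fdps, which makes farnesyl diphosphate, averaged 0.581 CPM and was left out. Of its 4208 annotated exon bases, 1124 lie also in the gene Gm43738. The study sequenced polyA RNA of whole pituitaries in 24 libraries, 3 for each of 8 groups. The groups were female and male Egr1cKO mice (homozygous floxed Egr1 with Cre), Egr1cKO control mice (floxed Egr1 without Cre), Cre control mice (Cre with unfloxed Egr1) and wild type mice (neither). Egr1cKO stands for a conditional knockout of Egr1, a transcription factor of the zinc-finger type. The Cre driver, the ages of the mice and the exon to be removed are not stated in the labels. Nothing in them says whether a library is 1 animal or a pool, so the p-values measure the spread between libraries of a group, which may be technical.

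Cholesterol is built from acetyl-CoA through mevalonate, squalene and lanosterol, and fatty acids from the same acetyl-CoA through malonyl-CoA. Many of these genes share a regulator: the SREBP transcription factors, encoded by Srebf1 and Srebf2, are held in the endoplasmic reticulum by INSIG proteins when sterols are plentiful and are escorted by SCAP to the Golgi for release when sterols are scarce. Endocrine cells of the pituitary need both kinds of lipid for membranes and secretory granules. Per kilobase of annotated exon, Scd2 had the highest mean level of the 27 genes, 36.6 CPM per kb, followed by Srebf1 with 21.8, Acly with 20 and Fdft1 with 19.5 CPM per kb. Acaca with 1.5, Idi1 with 1.05 and Hsd17b7 with 0.833 CPM per kb were the lowest.

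Sequences upstream of the start sites were available for 22 of the 27 genes in RefSeq (GRCm38.p6), as 28 windows, since some genes have several starts. The 250 bases before each start were searched. The core of the sterol regulatory element as found in the receptor and synthase genes of the pathway, TCACCCCA on either strand, was in the windows of Hmgcs1 and Srebf2, 7.14% of the 28 windows, against 1.34% of 32851 windows of all genes. The looser TCACNCCA, which includes the core, was also in the window of Msmo1 and was in 10.7% of the 28 windows, against 3.67% of all windows. The 3 windows are shown because they are the ones with this element, which is the letters the SREBP factors are known to bind. These 3 genes were called lower in females, as were 15 of all 27 genes (described further on). The genes without a window, Scd1, Scd2, Sqle, Fdft1 and Stard4, were all called lower too. A link between the element and the sex difference was not tested. Capitals mark the match, and each sequence is given in the direction of transcription. The GENCODE gene models of Srebf2 and Msmo1 begin inside these windows, so not all of their bases lie upstream of every transcript. The marked match of Msmo1 lies inside its GENCODE gene model, while that of Srebf2 lies upstream of its model.
Hmgcs1, chr13:119690101-119690350, plus strand: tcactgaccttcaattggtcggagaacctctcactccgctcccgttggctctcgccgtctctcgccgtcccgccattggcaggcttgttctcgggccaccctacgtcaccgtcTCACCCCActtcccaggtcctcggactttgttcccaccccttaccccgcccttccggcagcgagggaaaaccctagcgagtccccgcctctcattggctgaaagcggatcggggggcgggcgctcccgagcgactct
Srebf2, chr15:82147019-82147268, plus strand: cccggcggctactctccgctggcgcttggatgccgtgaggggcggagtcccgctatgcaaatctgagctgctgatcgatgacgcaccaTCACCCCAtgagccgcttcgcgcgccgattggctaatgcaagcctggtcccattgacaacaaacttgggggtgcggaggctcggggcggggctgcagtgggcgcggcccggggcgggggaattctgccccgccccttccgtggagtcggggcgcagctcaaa
Msmo1, chr8:64733579-64733828, minus strand: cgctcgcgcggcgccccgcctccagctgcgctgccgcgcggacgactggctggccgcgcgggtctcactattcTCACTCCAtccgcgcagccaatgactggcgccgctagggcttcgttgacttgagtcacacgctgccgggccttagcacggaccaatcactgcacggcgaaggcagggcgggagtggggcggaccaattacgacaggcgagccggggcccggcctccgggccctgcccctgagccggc

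CCAAT, the letters bound by the factor NF-Y, was in 19 of the 28 windows (67.9%), from 18 genes, against 33.9% of all windows. GTGGGCG, the core letters of an EGR binding motif, was in 7 of the 28 windows (25%), from Acly, Dhcr7, Fasn, Lss, Srebf1 and Srebf2, against 7.02% of all windows. A match describes the letters of a window and says nothing of binding.

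Library totals ran from 15486069 to 26255343 counts. Egr1 mRNA was not lower in Egr1cKO than in Egr1cKO control pituitaries. It averaged 65.5 ± 84.4 CPM in female Egr1cKO and 18.3 ± 13.8 CPM in female Egr1cKO control libraries, and 133.8 ± 93.1 CPM in male Egr1cKO and 38.9 ± 14.6 CPM in male Egr1cKO control libraries (SD, n = 3 each), and neither pair differed by edgeR's quasi-likelihood test (adjusted p = 0.468 in females and 0.886 in males). In Cre control libraries Egr1 averaged 214.1 ± 235.7 CPM in females and 195.1 ± 252.9 CPM in males (SD, n = 3 each). These means were above the Egr1cKO means of the same sex, a difference that was not tested. Averaged over both sexes and both Egr1 alleles, Cre carriers were not called different from non-carriers (edgeR, log2 fold change 1.9 ± 0.63 (SE), adjusted p = 0.0825). A count over the whole gene cannot show the loss of an exon. The defining hormones of the anterior and intermediate lobes, among them Prl, Gh and Pomc, were present in every library. The share of counts from mitochondrially encoded genes ran from 2.13% to 10.4% in female libraries and from 2.08% to 4.8% in male libraries. Female wild type replicate 1 stood apart from its group, with 10.1% mitochondrial counts against 2.13% in replicate 2 and 2.7% in replicate 3, and comparisons that use it are given with and without it where it changes them.

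**Figure D1:**
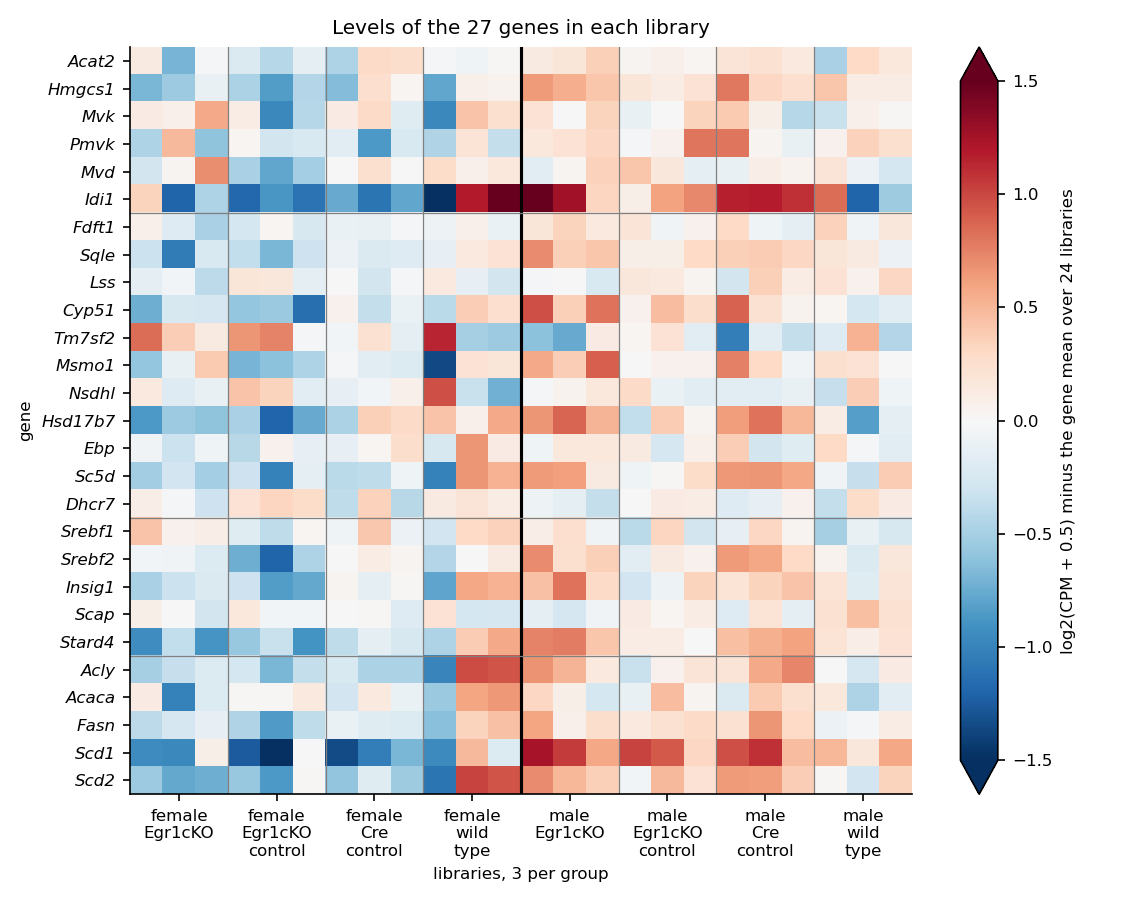
Level of each of the 27 genes (rows) in each of the 24 libraries (columns), as log2(CPM + 0.5) minus the gene's mean over the 24 libraries, with the color scale ending at 1.5 in both directions; the thick line separates female libraries, on the left, from male libraries. Most female columns are blue and most male columns red, except for female wild type replicates 2 and 3, whose medians over the 27 genes were 0.217 and 0.182.

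Most of the genes for cholesterol and fatty acid synthesis were lower in female than in male pituitaries as a mean of the 4 genotypes. This did not hold in wild type alone, where 18 of the 27 log2 fold changes were positive, with a median of 0.117. Averaged over the 4 genotypes, edgeR called 15 of the 27 genes lower in females, 55.6%, where 11.7% of all 21927 tested genes were called lower. Tm7sf2 was the 1 gene called higher, against a background of 9.99% called higher. The median log2 fold change of the 27 genes was -0.43, against -0.062 over all tested genes, and 23 of the 27 values were negative. By role, 3 of 6 mevalonate genes, 6 of 11 squalene and sterol genes, 3 of 5 regulators and carriers and 3 of 5 fatty acid genes were called lower. In whole tissue, fewer cells of a type and less RNA per cell cannot be told apart. The number of genes with a count was 20556, 18508 and 19142 in Egr1cKO females and 25555, 26081 and 25435 in Egr1cKO males. It was 18663, 23987 and 25410 in wild type females. In the genotypes other than Egr1cKO the sexes overlapped in this number, and its part in the results was not tested. The mitochondrial share also differed by sex, with a median of 6.37% in females and 3.17% in males, and none of the 27 genes was called when that share was added to the model, where 2.72% of all tested genes were still called (their median was then -0.2, with 17 negative and 9 at an unadjusted p under 0.05).

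**Figure D2:**
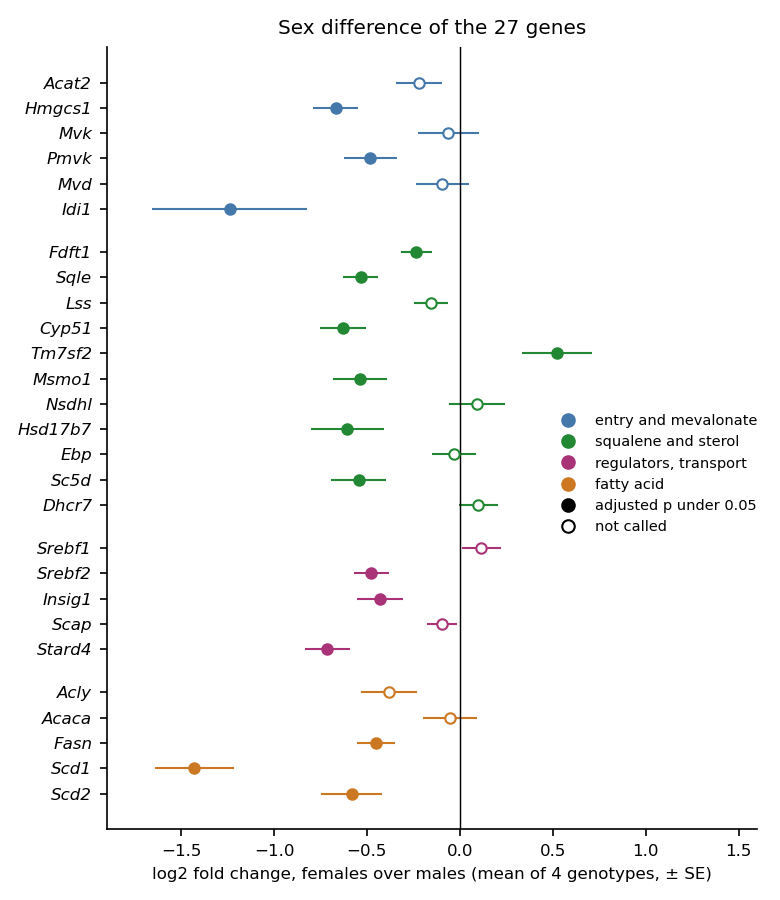
Log2 fold change of each of the 27 genes, females over males, as the mean of the 4 genotypes with its standard error, ordered by role. Filled points are the 16 genes with an adjusted p under 0.05 by edgeR, 15 below 0 and Tm7sf2 above; the values run from -1.43 for Scd1 to 0.52 for Tm7sf2.

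Of the mevalonate genes, Hmgcs1, Pmvk and Idi1 were called lower in females. Hmgcs1, the synthase that joins acetyl-CoA to acetoacetyl-CoA, had 17.6, 19.4 and 26.4 CPM in Egr1cKO females and 20.5, 15.8 and 21 CPM in Egr1cKO control females. Hmgcs1 had 18, 34.3 and 29.3 CPM in Cre control females and 16.4, 30.1 and 29.8 CPM in wild type females. It had 44.8, 41.9 and 38.2 CPM in Egr1cKO males and 32.4, 30.9 and 33.3 CPM in Egr1cKO control males. Hmgcs1 had 50, 35.4 and 34.1 CPM in Cre control males and 38.5, 31 and 30.9 CPM in wild type males. Of the 12 female libraries, 11 were below the lowest male library (edgeR, log2 fold change -0.67 ± 0.12 (SE), adjusted p = 4e-04). Pmvk, which phosphorylates phosphomevalonate, had 21, 40.9 and 18.9 CPM in Egr1cKO females and 29.8, 24 and 24.8 CPM in Egr1cKO control females. Pmvk had 26, 15.8 and 24.7 CPM in Cre control females and 21.1, 33.7 and 22.6 CPM in wild type females. Its male levels were 32.5, 34 and 36.1 CPM in Egr1cKO males and 28.6, 30.4 and 51 CPM in Egr1cKO control males. Pmvk had 51, 29.9 and 26.9 CPM in Cre control males and 30.4, 37.1 and 34.5 CPM in wild type males. Females were below the lowest male library in 9 of 12 cases (edgeR, log2 fold change -0.48 ± 0.14 (SE), adjusted p = 0.0174). Idi1, the isomerase that makes the reactive isoprene unit, varied most: it had 3.56, 0.895 and 1.82 CPM in Egr1cKO females and 0.916, 1.25 and 0.983 CPM in Egr1cKO control females. Idi1 had 1.4, 1 and 1.36 CPM in Cre control females and 0, 6.83 and 8.73 CPM in wild type females. In males it had 8.85, 7.18 and 3.51 CPM in Egr1cKO males and 2.9, 4.38 and 4.78 CPM in Egr1cKO control males. Idi1 had 6.71, 6.74 and 6.35 CPM in Cre control males and 5.25, 0.898 and 1.71 CPM in wild type males. Female wild type replicates 2 and 3 lay in the upper part of the male range, and replicate 1 had no count. The call for Idi1 (edgeR, log2 fold change -1.24 ± 0.42 (SE), adjusted p = 0.0364) held in 9 of the 24 fits that left out 1 library each.

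The other mevalonate genes were not called. Acat2, the cytosolic thiolase at the entry to the pathway, ranged from 8.67 to 17.6 CPM in females and from 10.1 to 18.6 CPM in males (log2 fold change -0.22 ± 0.12). Mvk, mevalonate kinase, ranged from 5.17 to 15.9 CPM in females and from 7.7 to 14 CPM in males, and Mvd, the decarboxylase, from 4.55 to 13.6 CPM in females and from 6.7 to 11.1 CPM in males. Their log2 fold changes were -0.06 ± 0.16 and -0.09 ± 0.14.

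Of the squalene and sterol genes, Sqle, Cyp51, Msmo1, Sc5d, Hsd17b7 and Fdft1 were called lower in females and Tm7sf2 higher. Sqle, squalene epoxidase, a rate-limiting oxidase of the pathway, had 27.8, 16.7 and 29.7 CPM in Egr1cKO females and 26.9, 21.6 and 28.2 CPM in Egr1cKO control females. Sqle had 32.8, 30.1 and 30.5 CPM in Cre control females and 32.1, 38.8 and 40.7 CPM in wild type females. In males it had 57.3, 45 and 46.8 CPM in Egr1cKO males and 37.3, 37.2 and 43.1 CPM in Egr1cKO control males. Sqle had 45.1, 45.6 and 43.4 CPM in Cre control males and 39.8, 38.5 and 32.9 CPM in wild type males. Only female wild type replicates 2 and 3 reached the male range, and all other female libraries lay below every male library (edgeR, log2 fold change -0.53 ± 0.09 (SE), adjusted p = 0.000325). Cyp51, the lanosterol demethylase, had 12.8, 18.2 and 18.1 CPM in Egr1cKO females and 14.2, 14.6 and 9.62 CPM in Egr1cKO control females. Cyp51 had 22.6, 16.7 and 20.2 CPM in Cre control females and 16.2, 28 and 25.8 CPM in wild type females. Male levels of Cyp51 were 42.7, 27.7 and 38.6 CPM in Egr1cKO males and 22.7, 30 and 26 CPM in Egr1cKO control males. Cyp51 had 40.3, 25.5 and 22.5 CPM in Cre control males and 22.2, 17.9 and 19.1 CPM in wild type males. Of the 12 females 6 lay below every male (edgeR, log2 fold change -0.63 ± 0.13 (SE), adjusted p = 0.00115). Of the 4415 exon bases of Cyp51, 166 overlap Akap9 on the other strand, and the libraries were not stranded; Akap9 itself had a log2 fold change of -0.11 (edgeR adjusted p = 0.501).

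Msmo1, the methylsterol oxidase of the demethylation steps, had 17.2, 23.9 and 34.3 CPM in Egr1cKO females and 15.8, 16.7 and 18.7 CPM in Egr1cKO control females. Msmo1 had 25.6, 23.1 and 22.4 CPM in Cre control females and 9.87, 30.2 and 29.5 CPM in wild type females. In males Msmo1 had 38.7, 33.6 and 48.8 CPM in Egr1cKO males and 25.8, 27.2 and 27.1 CPM in Egr1cKO control males. Msmo1 had 44.2, 32 and 25 CPM in Cre control males and 30.7, 30.4 and 26 CPM in wild type males. Female libraries lay below every male library in 8 of 12 cases (edgeR, log2 fold change -0.54 ± 0.15 (SE), adjusted p = 0.0101). Sc5d, a sterol desaturase, had 16.6, 19.7 and 16.7 CPM in Egr1cKO females and 19.4, 11.7 and 21.8 CPM in Egr1cKO control females. Sc5d had 18.2, 18.5 and 23 CPM in Cre control females and 11.7, 38.4 and 34.8 CPM in wild type females. Male levels of Sc5d were 37.8, 37.2 and 26.4 CPM in Egr1cKO males and 23, 24.4 and 29.3 CPM in Egr1cKO control males. Sc5d had 38, 38.4 and 36.2 CPM in Cre control males and 23.1, 18.9 and 31.5 CPM in wild type males. Female wild type replicates 2 and 3 lay in the upper part of the male range, while the 9 females of the other genotypes stood below the 9 males of those genotypes (edgeR over all libraries, log2 fold change -0.54 ± 0.15 (SE), adjusted p = 0.0104).

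Hsd17b7, the ketosteroid reductase of the demethylation steps, had the lowest level per kilobase, and had 1.92, 2.52 and 2.38 CPM in Egr1cKO females and 2.63, 1.43 and 2.1 CPM in Egr1cKO control females. Hsd17b7 had 2.66, 5.12 and 4.88 CPM in Cre control females and 5.41, 4.15 and 6 CPM in wild type females. In males it had 6.46, 7.54 and 5.76 CPM in Egr1cKO males and 2.9, 5.2 and 4.01 CPM in Egr1cKO control males. Hsd17b7 had 6.31, 7.24 and 5.7 CPM in Cre control males and 4.26, 1.98 and 3.5 CPM in wild type males. In each genotype other than wild type, all 3 females lay below all 3 males, whereas in wild type the sexes overlapped and 2 of 3 females lay above every male (edgeR over all libraries, log2 fold change -0.61 ± 0.2 (SE), adjusted p = 0.0274; kept in 18 of 24 fits without 1 library). Fdft1, squalene synthase, had 86.5, 71.3 and 58.4 CPM in Egr1cKO females and 68, 83.3 and 69.1 CPM in Egr1cKO control females. Fdft1 had 76.2, 75.3 and 80.4 CPM in Cre control females and 77.6, 86.3 and 76.1 CPM in wild type females. Its male levels were 92.6, 103 and 90.4 CPM in Egr1cKO males and 93.2, 78.8 and 85.6 CPM in Egr1cKO control males. Fdft1 had 100.9, 78 and 73.5 CPM in Cre control males and 104, 78.5 and 91.8 CPM in wild type males. The difference was small and close to the threshold (edgeR, log2 fold change -0.24 ± 0.08 (SE), adjusted p = 0.0439; kept in 9 of 24 fits), and 774 of the 4227 exon bases of Fdft1 lie opposite Ctsb, a more abundant gene that was also lower in females (log2 fold change -0.32, adjusted p = 0.0143).

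Tm7sf2, a sterol reductase that acts after the lanosterol demethylase, went the other way. It had 32.2, 23.3 and 19.7 CPM in Egr1cKO females and 28.4, 30.2 and 17.6 CPM in Egr1cKO control females. Tm7sf2 had 17.3, 20.9 and 16.1 CPM in Cre control females and 39.9, 12.5 and 12.1 CPM in wild type females. In males it had 11.5, 10.4 and 19.5 CPM in Egr1cKO males and 18.2, 20.8 and 15.8 CPM in Egr1cKO control males. Tm7sf2 had 8.46, 15.8 and 13.8 CPM in Cre control males and 15.6, 25.8 and 13 CPM in wild type males. The ranges overlapped widely, and 10 of 12 females lay at or above the male median. The call (edgeR, log2 fold change 0.52 ± 0.19 (SE), adjusted p = 0.0474) held in 7 of 24 fits without 1 library. Of the 4403 exon bases of Tm7sf2, 532 are shared with Vps51 on the same strand. Vps51, a more abundant gene, had a log2 fold change of -0.01 (edgeR adjusted p = 0.971). Lss, lanosterol synthase, Nsdhl, the sterol dehydrogenase, Ebp, the sterol isomerase, and Dhcr7, the reductase of the last step, were not called, with log2 fold changes of -0.15 ± 0.09, 0.09 ± 0.15, -0.03 ± 0.12 and 0.1 ± 0.11. Lss ranged from 23.3 to 35.1 CPM in females and from 25.4 to 39.6 CPM in males. Nsdhl ranged from 10.6 to 35.2 CPM in females, both ends in wild type, and from 13.9 to 23.1 CPM in males. Ebp ranged from 16.3 to 35 CPM in females and from 18.1 to 28.4 CPM in males, and Dhcr7 from 16.2 to 27.6 CPM in females and from 16.8 to 26.4 CPM in males.

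**Figure D3:**
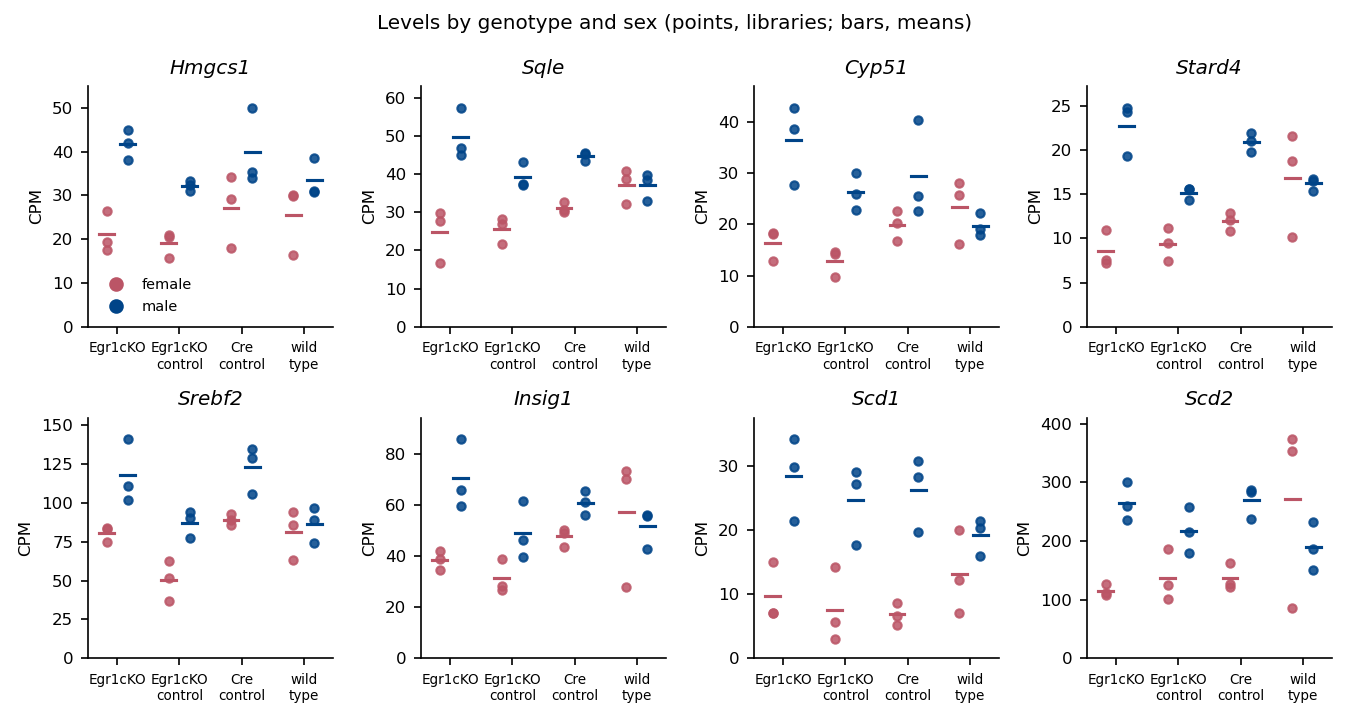
CPM of 8 of the genes called lower in females, in each library (points) and as group means (bars), females left of males within each of the 4 genotypes; each axis starts at 0. Females lie below males in Egr1cKO for all 8 genes, while in wild type the points of the sexes overlap for every gene but Hmgcs1.

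Of the regulators and carriers, Stard4, Srebf2 and Insig1 were called lower in females. Stard4, a carrier that moves cholesterol between membranes, had 7.28, 11 and 7.53 CPM in Egr1cKO females and 9.51, 11.2 and 7.48 CPM in Egr1cKO control females. Stard4 had 10.8, 12.9 and 12 CPM in Cre control females and 10.2, 18.8 and 21.6 CPM in wild type females. In males it had 24.3, 24.8 and 19.3 CPM in Egr1cKO males and 15.6, 15.6 and 14.4 CPM in Egr1cKO control males. Stard4 had 19.8, 21 and 21.9 CPM in Cre control males and 16.5, 15.4 and 16.7 CPM in wild type males. The 10 female libraries other than wild type replicates 2 and 3 lay below every male library (edgeR, log2 fold change -0.71 ± 0.12 (SE), adjusted p = 0.000233). Srebf2, the SREBP gene most tied to cholesterol synthesis, had 83.5, 82.8 and 74.5 CPM in Egr1cKO females and 51.6, 37.1 and 62.5 CPM in Egr1cKO control females. Srebf2 had 85.6, 93 and 88.6 CPM in Cre control females and 63.2, 85.4 and 94.2 CPM in wild type females. Male levels of Srebf2 were 141, 102 and 111 CPM in Egr1cKO males and 77.3, 94.3 and 90 CPM in Egr1cKO control males. Srebf2 had 134, 129 and 106 CPM in Cre control males and 88.9, 74.1 and 96.6 CPM in wild type males. The 3 female Egr1cKO control libraries were the lowest of all, and 8 of 12 male libraries lay above every female library (edgeR, log2 fold change -0.48 ± 0.09 (SE), adjusted p = 0.000996). Insig1, which retains the SREBP complex in the endoplasmic reticulum and is itself a target of SREBP, had 34.8, 38.9 and 42 CPM in Egr1cKO females and 39.1, 26.9 and 28.5 CPM in Egr1cKO control females. Insig1 had 50.3, 43.9 and 49.3 CPM in Cre control females and 28, 73.3 and 70.4 CPM in wild type females. In males Insig1 had 66.2, 85.9 and 59.6 CPM in Egr1cKO males and 39.7, 46.2 and 61.5 CPM in Egr1cKO control males. Insig1 had 56.2, 61.3 and 65.7 CPM in Cre control males and 56.4, 43 and 55.9 CPM in wild type males. Female wild type replicates 2 and 3 were among the highest of the 24 values and replicate 1 among the lowest (edgeR, log2 fold change -0.43 ± 0.12 (SE), adjusted p = 0.015).

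Srebf1, the SREBP gene most tied to fatty acid synthesis, was not called, with 92.4 to 163 CPM in females and 85.1 to 151 CPM in males (log2 fold change 0.11 ± 0.1). Scap, the escort of the SREBP factors, was not called either, with 76 to 106 CPM in females and 77.1 to 126 CPM in males (log2 fold change -0.1 ± 0.08). The SREBP genes thus had estimates of opposite sign, of which that of Srebf2 passed the test.

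Of the fatty acid genes, Scd1, Scd2 and Fasn were called lower in females. Scd1, a desaturase that makes monounsaturated fatty acids, showed the largest sex difference among the 27 genes. It had 7.11, 6.99 and 15 CPM in Egr1cKO females and 5.65, 2.99 and 14.2 CPM in Egr1cKO control females. Scd1 had 5.26, 6.62 and 8.61 CPM in Cre control females and 7.07, 20 and 12.2 CPM in wild type females. In males it had 34.1, 29.9 and 21.3 CPM in Egr1cKO males and 29.1, 27.2 and 17.6 CPM in Egr1cKO control males. Scd1 had 28.2, 30.7 and 19.7 CPM in Cre control males and 20.2, 15.9 and 21.4 CPM in wild type males. Of the 12 female libraries 11 lay below every male library, and the female level was 37.1% of the male level (edgeR, log2 fold change -1.43 ± 0.21 (SE), adjusted p = 5.51e-05). Scd2, its more abundant paralog, had 126, 108 and 111 CPM in Egr1cKO females and 124, 102 and 186 CPM in Egr1cKO control females. Scd2 had 122, 162 and 127 CPM in Cre control females and 85.8, 373 and 354 CPM in wild type females. Male levels of Scd2 were 301, 260.4 and 235 CPM in Egr1cKO males and 179, 258 and 214 CPM in Egr1cKO control males. Scd2 had 286, 284 and 237 CPM in Cre control males and 187, 150.5 and 232 CPM in wild type males. Female wild type replicates 2 and 3 had the highest values of all 24 libraries and replicate 1 the lowest (edgeR, log2 fold change -0.58 ± 0.16 (SE), adjusted p = 0.0141). Fasn, fatty acid synthase, had 103, 113 and 124 CPM in Egr1cKO females and 98.9, 74.8 and 104 CPM in Egr1cKO control females. Fasn had 126, 119 and 117 CPM in Cre control females and 87.5, 170.2 and 183 CPM in wild type females. In males Fasn had 204, 143 and 162 CPM in Egr1cKO males and 149.5, 158 and 165 CPM in Egr1cKO control males. Fasn had 159, 214 and 166 CPM in Cre control males and 127, 134 and 146 CPM in wild type males. Outside wild type, every female library lay below every male library (edgeR over all libraries, log2 fold change -0.45 ± 0.1 (SE), adjusted p = 0.00345).

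Acly, which makes cytosolic acetyl-CoA from citrate, was just outside the threshold (log2 fold change -0.38 ± 0.15, edgeR adjusted p = 0.0693). It ranged from 49.7 to 196 CPM in females, with both ends in wild type, and from 78.2 to 164 CPM in males. Acaca, acetyl-CoA carboxylase, ranged from 12 to 39.2 CPM in females and from 17.8 to 34.3 CPM in males (log2 fold change -0.05 ± 0.14). Scd1 and Scd2, Idi1 and Acat2 have close copies elsewhere in the genome, and no source states how the authors counted reads that match several genes.

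Within single genotypes, genes were called in Egr1cKO and Cre control and none in Egr1cKO control or wild type. In Egr1cKO pituitaries 9 of the 27 genes were called lower in females by edgeR and none higher, 33.3% against a background of 7.57% called lower: Hmgcs1, Sqle, Cyp51, Hsd17b7, Sc5d, Insig1, Stard4, Scd1 and Scd2. Their log2 fold changes ran from -1.55 for Scd1 to -0.87 for Insig1, and the median of all 27 genes was -0.553, against -0.109 over all tested genes. The count was 3 without male Egr1cKO replicate 1, 4 without male replicate 2, 4 without female Egr1cKO replicate 1 and 5 without female replicate 2, and Cyp51, Sqle and Stard4 stayed called in each of the 6 fits without 1 of these libraries. Once the mitochondrial share was in the model none was called, and 0.981% of all tested genes were. In these groups that share was 8.73% to 10.4% in females and 2.76% to 3.8% in males.

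In Cre control pituitaries Scd1 alone was called lower in females (edgeR, log2 fold change -1.93 ± 0.43 (SE), adjusted p = 0.0157), against a background of 2.01% called lower, and the median of the 27 genes was -0.466, against -0.022 over all tested genes. That call was lost without male Cre control replicate 2 or female replicate 1 or 2, and DESeq2 called 6 genes, against 11% of all genes by that tool. In Egr1cKO control pituitaries edgeR called none of the 27, where 0.451% of all genes were called, although 12 had an unadjusted p under 0.05, the median was -0.535 and DESeq2 called 5, against 3.6% of all genes by that tool. Without female Egr1cKO control replicate 3 edgeR called 2. In wild type pituitaries none was called, where 0.283% of all genes were called, 1 had an unadjusted p under 0.05, DESeq2 called none, and the median was 0.117 with 18 of 27 values positive.

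Separation of the single libraries was counted as well. All 3 females lay below all 3 males for 14 of 27 genes (51.9%) in Egr1cKO, against 23.5% of all tested genes, for 14 of 27 in Egr1cKO control, against 14.1%, and for 12 of 27 (44.4%) in Cre control, against 18%. In wild type this held for 2 of 27 genes, Hmgcs1 and Scap (7.41%), against 5.49%. In the other direction, all 3 females lay above all 3 males for Tm7sf2 in Egr1cKO, against 14.9% of all tested genes, and in Cre control, against 15%, for Dhcr7 in Egr1cKO control, against 10.9%, and for none of the 27 in wild type, against 4.62%. Over the 9 females and 9 males that were not wild type, Sqle, Sc5d, Stard4, Fasn and Scd1 did not overlap between the sexes (18.5% of the 27 genes, against 2.47% of all tested genes). None of the 27 had all 9 of these females above the 9 males, against 1.56%. The set without wild type was not among the planned comparisons, and it leaves out the genotype where the genes named overlapped between the sexes. With wild type included, none of the 27 separated the 12 females from the 12 males, where 0.178% of all tested genes did so with females lower.

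The difference between genotypes was tested directly by contrasts chosen after seeing the data. The sex difference in Egr1cKO minus that in wild type was called lower for Stard4 (edgeR, log2 fold change -1.46 ± 0.35 (SE), adjusted p = 0.0433), Hsd17b7 (log2 fold change -2.21 ± 0.56 (SE), adjusted p = 0.0479) and Cyp51 (log2 fold change -1.4 ± 0.36 (SE), adjusted p = 0.0498), 3 of 27 genes against a background of 0.848% called lower, and 22 of the 27 values were negative. The count ranged from 0 to 14 over the 12 fits without 1 library of these groups: it was 0 without male Egr1cKO replicate 1 or 2, without any 1 of the male wild type libraries, without female Egr1cKO replicate 1 or 3 and without female wild type replicate 2 or 3, it was 1 without female Egr1cKO replicate 2, and it was 14 without female wild type replicate 1. For Egr1cKO control minus wild type and for Cre control minus wild type edgeR called none (a background of 0% in one and 0.128% in the other), with 11 and 9 genes at an unadjusted p under 0.05 and 0 and 3 called by DESeq2, against 0.0114% and 6.44% of all genes.

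Female wild type replicate 1 decided much of the wild type result. For 18 of the 27 genes it was the lowest of its 3 libraries, and for 5, Mvd, Lss, Tm7sf2, Nsdhl and Scap, the highest. Idi1 had no count in replicate 1 against 6.83 and 8.73 CPM in replicates 2 and 3. Scd2 had 85.8 CPM in replicate 1 against 373 and 354 CPM in replicates 2 and 3, and Acly 49.7 CPM against 196 and 191 CPM. Without that library, edgeR called Acly (log2 fold change 1 ± 0.19, adjusted p = 0.00247) and Scd2 (0.94 ± 0.21, adjusted p = 0.00906) higher in wild type females than in wild type males, and Scap lower (-0.56 ± 0.16, adjusted p = 0.0381), where 4.41% of all genes were called. The sex difference minus that in wild type was then called for 14 genes in Egr1cKO (12 lower, 2 higher), 9 in Egr1cKO control and 9 in Cre control (all lower), against backgrounds of 22.3%, 9.63% and 18.7%. The averaged sex comparison without it called 16 lower and none higher, against a background of 18.8% in either direction.

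**Figure D4:**
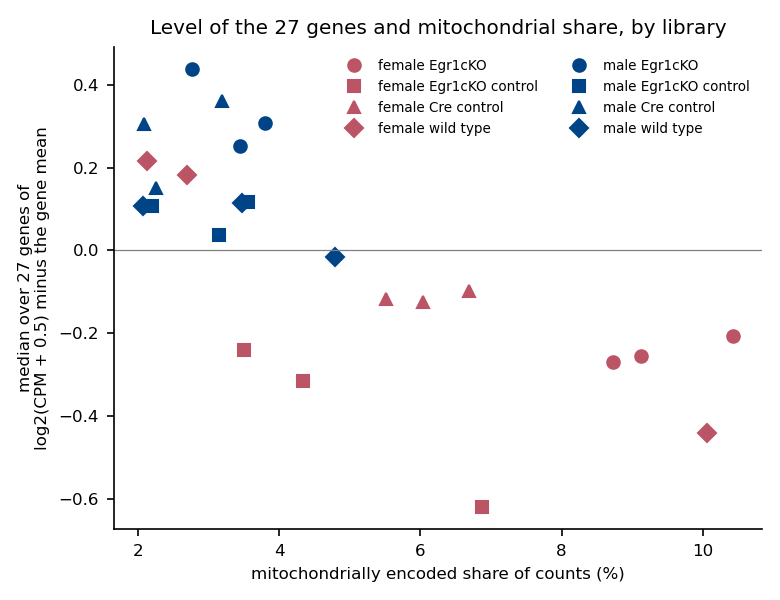
Median over the 27 genes of log2(CPM + 0.5) minus each gene's mean, against the mitochondrially encoded share of counts in percent, for each library (color, sex; shape, genotype). Female wild type replicates 2 and 3, at 2.13% and 2.7%, lie among the males, and the other 10 females lie below every male.

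The median over the 27 genes of the level relative to each gene's mean ran from -0.621 to 0.217 on the log2 scale in females and from -0.017 to 0.439 in males. The only positive values in females were 0.217 and 0.182, in wild type replicates 2 and 3, which also had the lowest mitochondrial shares of the female libraries. Female Egr1cKO control replicates 1 and 3 had shares of 4.33% and 3.5%, within the male range, and medians of -0.315 and -0.24, below every male library. Markers of the posterior lobe moved with sex too. They summed to 159 to 392 CPM in females and 72.9 to 261 CPM in males, and 5 of 6 were called higher in females. Gonadotrope (3 of 3), thyrotrope (2 of 2), somatotrope (2 of 3) endothelial (2 of 4), red blood cell (1 of 3), and stem and folliculostellate (1 of 4) markers were called lower in females. Melanotrope (2 of 4), leukocyte (2 of 5) and corticotrope (1 of 3) markers were called higher, and Prl, the lactotrope hormone, was higher too (log2 fold change 2.62, edgeR adjusted p = 3.58e-10). Drd2, the other lactotrope marker, was not called. Of all tested genes, 11.7% were called lower in females and 9.99% higher. The melanotrope and corticotrope lists share Pomc. The part of these markers in the results was not tested. Of the adipocyte markers, whose cells make much fatty acid, Adipoq had no count in any female library, Cidec had none in any male library, and neither they nor Plin1 reached 1 CPM in any library. The list summed to 3.14 to 14.5 CPM in females and 1.85 to 11.4 CPM in males, nearly all of it Fabp4, which endothelial cells and macrophages also express. Oligodendrocyte markers, from cells rich in cholesterol synthesis, summed to 30.1 to 87.2 CPM in females and 27.3 to 86.9 CPM in males.

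Other genes of the pathways, listed alongside, moved the same way in part. The background in this comparison was 11.7% of all tested genes called lower in females and 9.99% called higher. Of 18 genes for sterol handling, 6 were called lower in females and 1 higher. The lower ones were Scarb1, a lipoprotein receptor (-0.64 ± 0.15), Npc2, which carries cholesterol out of lysosomes (-0.68 ± 0.15), Abcg1, a sterol exporter (-0.45 ± 0.12), Mbtps1, the protease that cuts SREBP (-0.34 ± 0.09), Insig2 (-0.34 ± 0.11) and Soat1, which esterifies cholesterol (-0.32 ± 0.11), all as log2 fold changes. Nr1h2, a liver X receptor, was higher (0.37 ± 0.11). The call for Soat1 held in 9 of the 24 fits without 1 library and in 1 of 5 other settings. Of 20 further fatty acid and lipid genes, 9 were called lower and none higher: Lpin1, a phosphatidate phosphatase (-0.9 ± 0.12), the desaturases Fads2 (-0.71 ± 0.12) and Fads1 (-0.61 ± 0.09), Dgat2 (-0.71 ± 0.16), Acacb (-0.51 ± 0.13), Acsl1 (-0.46 ± 0.15), Hsd17b12 (-0.42 ± 0.12), Acss2 (-0.35 ± 0.09) and Me1 (-0.29 ± 0.1). The call for Me1 held in 9 of 24 such fits and in 2 of 5 other settings. Of these 16 genes of both lists, Lpin1 alone stayed called when the mitochondrial share was added to the model. The medians of these lists were -0.2 and -0.115, nearer to the -0.062 of all genes than the -0.43 of the 27.

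None of the 27 genes passed the test in the knockout comparison in either sex. In female Egr1cKO against Egr1cKO control pituitaries edgeR called none of the 27, where 2.21% of all tested genes were called, with 2 at an unadjusted p under 0.05 and Mvd and Srebf2 called by DESeq2, against 6.27% of all genes. Srebf2 was nearest, with 83.5, 82.8 and 74.5 CPM in Egr1cKO females and 51.6, 37.1 and 62.5 CPM in Egr1cKO control females (edgeR, log2 fold change 0.67 ± 0.19 (SE), adjusted p = 0.056). Its groups did not overlap, and neither did those of Mvd and Srebf1, also higher in Egr1cKO (11.1% of the 27 genes, against 9.57% of all genes). Dhcr7 alone was lower in every Egr1cKO library, against 11.9% of all genes. Mvd had 6.69, 8.39 and 13.6 CPM in Egr1cKO females and 5.69, 4.55 and 5.6 CPM in Egr1cKO control females (edgeR, log2 fold change 0.85 ± 0.28 (SE), adjusted p = 0.104). Without female Egr1cKO control replicate 3 edgeR called 1 gene. With the mitochondrial share as a covariate, 11 were called, 10 of them higher, where 14.1% of all genes were called; that share was 8.73% to 10.4% in female Egr1cKO and 3.5% to 6.87% in female Egr1cKO control libraries.

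In male Egr1cKO against Egr1cKO control pituitaries edgeR called none of the 27, where 0.041% of all genes were called, 3 had an unadjusted p under 0.05 and DESeq2 called none. The estimates were mostly positive, 20 of 27, with a median of 0.192 against 0.028 over all genes. The 3 Egr1cKO libraries lay above the 3 control libraries for 7 genes, Acat2, Hmgcs1, Sqle, Msmo1, Hsd17b7, Srebf2 and Stard4 (25.9%, against 10.8% of all genes), and below them for Lss, Dhcr7 and Scap (11.1%, against 10.2%). Stard4 had 24.3, 24.8 and 19.3 CPM in Egr1cKO males and 15.6, 15.6 and 14.4 CPM in Egr1cKO control males (edgeR, log2 fold change 0.59 ± 0.24 (SE), adjusted p = 0.666). Srebf2 had 141, 102 and 111 CPM in Egr1cKO males and 77.3, 94.3 and 90 CPM in Egr1cKO control males (edgeR, log2 fold change 0.43 ± 0.19 (SE), adjusted p = 0.7).

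Cre control against wild type gives the effect of Cre without floxed Egr1. In male Cre control against wild type pituitaries edgeR called none of the 27, where 0.233% of all genes were called, 5 had an unadjusted p under 0.05 and DESeq2 called none. The median was 0.252 against 0.014 over all genes, and the 3 Cre control libraries lay above the 3 wild type libraries for 10 genes, Idi1, Sqle, Cyp51, Hsd17b7, Sc5d, Srebf2, Stard4, Acly, Fasn and Scd2 (37%, against 11.1% of all genes), and below them for Scap (3.7%, against 10.5%). Srebf2 had 134, 129 and 106 CPM in Cre control males and 88.9, 74.1 and 96.6 CPM in wild type males (edgeR, log2 fold change 0.51 ± 0.19 (SE), adjusted p = 0.337). Fasn had 159, 214 and 166 CPM in Cre control males and 127, 134 and 146 CPM in wild type males (edgeR, log2 fold change 0.41 ± 0.21 (SE), adjusted p = 0.486).

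In female Cre control against wild type pituitaries the estimates were mostly negative, 21 of 27, with a median of -0.238 against -0.037 over all genes, and -0.937 for the 5 fatty acid genes. None was called by edgeR, where 1.21% of all genes were called, 4 had an unadjusted p under 0.05 and DESeq2 called Acly, against 4.88% of all genes. No gene separated the 3 Cre control from the 3 wild type libraries, where 8.02% of all genes did so with Cre control higher and 6.83% with it lower. Acly had 84.6, 70.8 and 71.1 CPM in Cre control females and 49.7, 196 and 191 CPM in wild type females (edgeR, log2 fold change -0.95 ± 0.3 (SE), adjusted p = 0.113). Without female wild type replicate 1, 7 genes were called lower, Insig1, Sc5d, Acly, Fasn, Idi1, Stard4 and Scd2, where 15.5% of all genes were called.

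**Figure D5:**
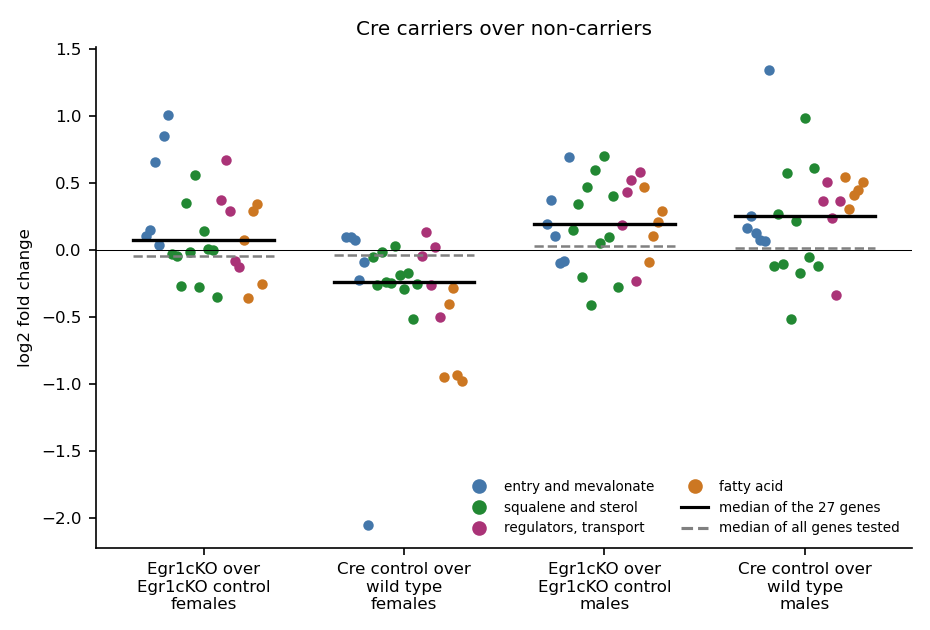
Log2 fold changes of the 27 genes (points, colored by role) in the 4 comparisons of Cre carriers with non-carriers, with the median of the 27 genes (black line) and of all tested genes (dashed line). None of the points passes the test; the medians of the 27 genes are 0.076 and -0.238 in the female comparisons and 0.192 and 0.252 in the male ones.

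Averaged over both sexes and both Egr1 alleles, 1 of the 27 genes differed between Cre carriers and non-carriers. Srebf2 was higher in Cre carriers (edgeR, log2 fold change 0.44 ± 0.09 (SE), adjusted p = 0.00397). That is 3.7% of the 27 genes, near the background of 2.8% of all genes called higher. This call held in all 24 fits without 1 library and in all 5 other settings tried for this comparison. The estimate for Srebf2 was smallest in female Cre control against wild type pituitaries (log2 fold change 0.14), where the libraries of the groups overlapped. The other 26 genes had log2 fold changes from -0.3 for Tm7sf2 to 0.38 for Hsd17b7, and the median was 0.08, against -0.034 over all genes. With the mitochondrial share as a covariate 12 of the 27 were called, 11 of them higher, where 19.3% of all genes were called. In Cre carriers, all 4 melanotrope, 4 of 6 posterior lobe, 2 of 2 thyrotrope, 2 of 3 corticotrope, 2 of 4 stem and folliculostellate, 1 of 3 gonadotrope and 1 of 5 leukocyte markers were called higher. Pomc is in both the melanotrope and the corticotrope list, so its call is counted in each. Prl and all 3 somatotrope markers were called lower, while Drd2, the other lactotrope marker, was called higher. The part of these markers in the result was not tested.

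Of the 20 further fatty acid and lipid genes 6 were called lower in Cre carriers and none higher: Lpin1 (log2 fold change -0.87 ± 0.12, edgeR adjusted p = 2.11e-05), Dgat2 (-0.79 ± 0.16), Acacb (-0.68 ± 0.13), Elovl6 (-0.47 ± 0.12), Thrsp (-0.32 ± 0.1) and Gpam (-0.29 ± 0.09), genes of triglyceride synthesis and fatty acid elongation and control. The calls for Thrsp and Gpam held in 8 and 5 of the 24 fits without 1 library, and both were lost without a filter on low counts. Of the 18 sterol handling genes, Cyp27a1, a sterol hydroxylase (-1 ± 0.21), and Abca1, a cholesterol exporter (-0.57 ± 0.12), were called lower. The background called lower was 4.08%. Lpin1 was by edgeR also lower in female Egr1cKO against Egr1cKO control (-1.27 ± 0.24, adjusted p = 0.00403) and in female Cre control against wild type pituitaries (-1.2 ± 0.24, adjusted p = 0.0109). The second of these calls was lost without female Cre control replicate 1 or 3 and in the fit of only the groups compared (edgeR adjusted p up to 0.203 over the settings tried).

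The effect of Egr1cKO beyond that of Cre alone was estimated as the difference between the Cre effects with and without floxed Egr1. Averaged over the sexes, edgeR called none of the 27 and no gene of all 21927 tested (a background of 0%). None of the 27 and 1125 of all genes had an unadjusted p under 0.05, and DESeq2 called none of the 27. The estimates of 24 of the 27 were positive, with a median of 0.151, from -0.18 for Acaca to 1.2 for Idi1, none of them called (smallest edgeR adjusted p = 0.933, for Insig1). With the mitochondrial share as a covariate Insig1, Acly and Scd2 were called higher, where 1.46% of all genes were called. The difference between the sexes in the Cre effect was called by edgeR for none of the 27, where 2.06% of all genes were called, with 6 at an unadjusted p under 0.05 and Acly, Stard4 and Scd2 called by DESeq2, against 6.78% of all genes. Stard4 was nearest (edgeR, log2 fold change -0.79 ± 0.24 (SE), adjusted p = 0.0734), and without female wild type replicate 1, 7 genes were called, all lower, where 19.6% of all genes were called. Egr1cKO control against wild type, averaged over the sexes, gave none called by edgeR (a background of 0%) or DESeq2, 4 at an unadjusted p under 0.05, and 5 called lower without female wild type replicate 1, where 7.17% of all genes were called. The titles number these genotypes in separate series, so the floxed allele and the series cannot be told apart.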

How the data were processed

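The authors deposited raw read counts per gene for 24 pituitary libraries, from non-stranded polyA libraries per the labels. Per the submitters' processing notes, Trim Galore 3.8.2, FastQC, STAR 2.7.9 and GRCm38 were used. The counting tool and annotation are not given there. Of 35191 gene IDs, 35077 matched GENCODE M21, the source of symbols and exon lengths. Counts were fitted with edgeR 4.0.16 in R 4.3.3 (filterByExpr, TMM, robust quasi-likelihood, 1 mean for each of 8 groups, 16 residual degrees of freedom). P-values were adjusted by Benjamini-Hochberg over 21927 genes, and called means an adjusted p under 0.05. CPM use TMM-scaled library totals, and plots use log2(CPM + 0.5). Alternatives were DESeq2 1.42.0 and its size factors, other filters on low counts, the mitochondrial share as a covariate, fits of only the groups compared, and each library left out. Contrasts of sex differences with wild type, and naming female wild type replicate 1 as the library left out, were chosen after seeing the data. Counting the separation of libraries without wild type was not planned either. Replicate libraries all differed by more than sampling noise (lowest chi-square per degree of freedom 16.3). The 27 genes and the other lists were chosen with earlier results of these data known. By rule, members called in any comparison are given in every library and the others by range and counts; Mvd and Acly were added in single comparisons after their values were seen. Replicate numbers follow accession order. The fit was also run on simulated counts in which chosen genes differed between the sexes only. Those counts held no outlying library and no set difference in mitochondrial share, so they cannot show how either affects the fit.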

Additional observations from a re-analysis of the deposited data

Results flagged for a closer look

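For 4 genes the effect of 1 contrast differed between groups by a test of that difference. Abca1, a cholesterol exporter, was lower with Cre in females (log2 fold change -1.05 in Egr1cKO against Egr1cKO control, edgeR adjusted p = 0.0247, and -1.19 in Cre control against wild type, adjusted p = 0.0171). The first of these calls held in 2 of the 6 fits without 1 of its libraries and was lost with the mitochondrial share in the model. The second also held in 2 of 6 and was lost in the fit of only the groups compared. In males its log2 fold changes were -0.02 and -0.04. The difference between the sexes in the Cre effect was -1.09 ± 0.25 (SE; edgeR adjusted p = 0.0286). It was called in 13 of the 24 fits without 1 library and was lost once the share of mitochondrial counts entered the model. The sex difference in Egr1cKO minus that in wild type, a contrast chosen after seeing the data, was -1.46 for Stard4, -2.21 for Hsd17b7 and -1.4 for Cyp51 (edgeR adjusted p = 0.0433, 0.0479 and 0.0498). Of the 12 fits without 1 of these libraries, Stard4 was called in 3, Hsd17b7 in 2 and Cyp51 in 1, and no call among these 3 remained once the mitochondrial share was in the model.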

How the results depend on the processing

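Counts of called genes among the 27 were recomputed under other settings, and the cause of a change was not tested. Adding the mitochondrial share to the model gave 0 in the averaged sex comparison (16 as reported), 0 in Egr1cKO (9) and 0 in Cre control (1). It gave 1 in Egr1cKO control (0), Srebf2, lower in females, where 0.579% of all tested genes were called. In wild type it gave 2 (0), Acly and Scd2, both higher in females, where 1.72% of all tested genes were called. It gave 0 for the sex difference in Egr1cKO minus that in wild type (3), 11 for Egr1cKO against Egr1cKO control in females (0), 12 for Cre carriers against non-carriers (1) and 3 for the effect beyond Cre (0). The same setting turned the sign of log2 fold changes, to values that were not called. In the averaged sex comparison these were Insig2 0.044, Soat1 0.134, Hsd17b12 0.0175, Insig1 0.0433, Nr1h2 -0.0594, Acsl1 0.0635, Sc5d 0.11, Idi1 0.362, Abcg1 0.0371, Tm7sf2 -0.167 and Scd2 0.148. In the Egr1cKO sex comparison they were Insig2 0.0191, Insig1 0.0598, Nr1h2 -0.0123, Acsl1 0.0793, Sc5d 0.372, Npc2 0.345, Abcg1 0.0794 and Scd2 0.299.

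Parentheses here give what was called among all tested genes in the same fit, as a percent or a count. DESeq2 called 1 for Cre control against wild type in females (4.88%) and 2 for Egr1cKO against Egr1cKO control in females (6.27%). It called 3 for the sex difference of the Cre effect (6.78%). For the sexes it called 5 in Egr1cKO control (3.6%) and 6 in Cre control (11%). For the sex differences minus wild type it called 3 in Cre control (6.44%) and 6 in Egr1cKO (6.37%). DESeq2 size factors within edgeR gave 1 in Egr1cKO for that contrast (177 of 21927). A minimum mean of 1 CPM gave 1 for the sexes in Egr1cKO control (121 of 16118) and 2 in Cre control (1029 of 16118). It gave 1 for Egr1cKO against Egr1cKO control in females (577 of 16118). Without a filter on low counts, 4 were called for Cre control against wild type in females (1149 of 35191). There were 3 for the sex difference of the Cre effect (2081 of 35191). For the sexes there were 4 in Egr1cKO control (782 of 35191) and 5 in Cre control (2426 of 35191). The sex differences minus wild type then had 8 in Egr1cKO (1923 of 35191) and 1 in Egr1cKO control (145 of 35191). In Cre control there were 5 (1427 of 35191). Fits of only the groups compared gave 5 for the sexes in Egr1cKO control (1038 of 18647) and 8 in Cre control (3066 of 18356).

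Leaving out 1 library at a time gave 12 to 17 calls in the averaged sex comparison, 3 to 9 in Egr1cKO, 0 to 2 in Egr1cKO control, 0 to 1 in Cre control and 0 to 3 in wild type. It gave 1 in every fit for Cre carriers against non-carriers, 0 to 7 for Cre control against wild type in females, 0 in males, 0 to 1 for Egr1cKO against Egr1cKO control in females, 0 in males and 0 for the effect beyond Cre. The range was 0 to 7 for the sex difference of the Cre effect, 0 to 5 for Egr1cKO control against wild type, and 0 to 14, 0 to 9 and 0 to 9 for the sex differences minus wild type in Egr1cKO, Egr1cKO control and Cre control. Each upper end in comparisons with wild type females, except the averaged sex comparison, came without female wild type replicate 1. No paired analysis was possible because the labels give no replicate numbers shared between groups. With 3 libraries a group, a gene that was not called is not shown to be alike between groups.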
